A study of Mus musculus with 14 samples.

Results

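The 10 genes described here take part in building the neuromuscular junction: the acetylcholine receptor subunits Chrna1, Chrnb1, Chrnd, Chrne and Chrng, and the synapse genes Musk, Rapsn, Dok7, Lrp4 and Agrn. They were selected by name, with earlier results of these data known. A peak was counted for a gene when the deposited annotation gave it that gene's symbol. Of the 10 genes, 6 had at least 1 peak (Chrna1, Chrng, Musk, Rapsn, Dok7 and Lrp4), among 4384 genes with a peak in any of the 12 lists, and 4 (Chrnb1, Chrnd, Chrne and Agrn) had none and were counted as not bound.

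The lists come from ChIP-seq of muscle stem cells (MuSCs) in mice labeled wild-type that carried a Pax7-Cre(ERT2) driver and a mito-Dendra2 allele. All animals received tamoxifen (75 mg/kg, 5 days), which turns on the fluorescent mitochondrial protein in Pax7-expressing cells and their progeny, and BaCl2 (50 µL, 1.2%) was injected into a tibialis anterior muscle, with saline in the opposite leg. At 2 days after injury, activated stem cells (ASCs; CD34-, Dendra2+) were sorted from injured muscle and quiescent stem cells (QSCs; CD34+, Dendra2+) from the saline muscle. Chromatin of each was precipitated with a MyoD or a MyoG antibody, with 3 libraries in each of the 4 groups (ASC MyoD, ASC MyoG, QSC MyoD, QSC MyoG), and 2 input libraries were not analysed here. Age, sex and the number of animals behind a library are not given in the sources used here. Peak lists hold no expression values, so the identity of the sorted cells could not be checked against marker genes.

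MyoD and MyoG are basic helix-loop-helix factors of the muscle lineage that bind the E-box, a short DNA motif with the letters CANNTG. At the junction, the nerve releases agrin, which binds LRP4 on the muscle surface and activates the receptor kinase MuSK. DOK7 is the adaptor that binds MuSK inside the cell, and rapsyn, the product of Rapsn, gathers acetylcholine receptors into clusters under the nerve ending. The receptor is a ring of subunits in which the fetal gamma subunit (Chrng) is replaced by the adult epsilon subunit (Chrne) as the synapse matures. Promoters of receptor subunit genes are classic E-box targets of the MyoD family in cultured muscle cells.

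A peak is a stretch with more ChIP reads than the local background, and its score is minus 10 times the log10 of the authors' p-value. The lowest score in any list was 50 (a p-value of 1e-05). ASC MyoD lists held 2262 to 2652 peaks, ASC MyoG lists 605 to 916, QSC MyoD lists 139 to 174 and QSC MyoG lists 120 to 167. Read depth is unknown and the peak numbers of a list move with it. Between 5.63% and 25.7% of the peak numbers in a library's own series were not among the peaks analysed here. This share was 5.63% to 6.72% in ASC MyoD, 14.1% to 17.3% in ASC MyoG, 17.1% to 25.7% in QSC MyoD and 9.24% to 16.1% in QSC MyoG. A gene without a listed peak was thus not shown to be free of binding. Peaks of different libraries were merged into a region when they overlapped by at least 1 bp, and a region was ASC-specific when it had a peak in at least 2 of 3 ASC libraries and in no QSC library of the same antibody.

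Promoter sequences are shown for 4 receptor subunit genes because the peaks at Chrna1, Chrnb1 and Chrng cover these bases, whereas Chrne, the adult counterpart of Chrng, had none. RefSeq promoter windows (build GRCm38.p6, the assembly also called mm10, which the labels name for the lists) were matched for 7 of the 10 genes and were missing for Chrnd, Rapsn and Lrp4. Each run is 5' to 3' on the gene's own strand and ends at the base before an annotated transcription start, and capitals mark the E-boxes. The Chrna1 run is chr2:73580339-73580588 (minus strand), the Chrng run is chr1:87205561-87205810 (plus strand) and the Chrne run is chr11:70619195-70619444 (minus strand). The Chrnb1 run, chr11:69795938-69796067 (minus strand), was shortened to 130 bases so as to leave out the span of the neighboring gene Fgf11.
Chrna1: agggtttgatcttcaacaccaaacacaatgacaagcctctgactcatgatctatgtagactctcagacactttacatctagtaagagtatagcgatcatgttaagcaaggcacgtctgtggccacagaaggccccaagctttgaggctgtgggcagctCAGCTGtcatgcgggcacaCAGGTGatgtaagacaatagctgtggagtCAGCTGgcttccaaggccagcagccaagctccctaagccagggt
Chrnb1: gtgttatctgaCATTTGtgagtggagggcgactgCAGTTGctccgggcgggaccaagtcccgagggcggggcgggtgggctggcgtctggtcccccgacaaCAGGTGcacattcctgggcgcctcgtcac
Chrng: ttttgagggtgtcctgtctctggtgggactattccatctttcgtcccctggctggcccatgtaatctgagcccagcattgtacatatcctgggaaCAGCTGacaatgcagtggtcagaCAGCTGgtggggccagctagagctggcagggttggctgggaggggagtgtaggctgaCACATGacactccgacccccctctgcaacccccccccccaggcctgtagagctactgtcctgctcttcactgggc
Chrne: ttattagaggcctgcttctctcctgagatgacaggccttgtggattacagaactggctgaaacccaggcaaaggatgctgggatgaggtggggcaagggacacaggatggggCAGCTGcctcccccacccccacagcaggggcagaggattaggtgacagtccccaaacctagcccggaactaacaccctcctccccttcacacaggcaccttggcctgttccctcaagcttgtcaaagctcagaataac

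Each promoter run held at least 1 E-box. Positions are those of a motif's first base, counted backward from -1 at the base before the start. In Chrna1 there were 3 E-boxes, of which 2 read CAGCTG (positions -92 and -44) and 1 read CAGGTG (position -73). Chrng also had 3, with CAGCTG at positions -155 and -132. Chrnb1 had 3, with a single CAGGTG at position -29, and Chrne had 1, a CAGCTG at position -138. The annotated starts differ from the ends of the RefSeq spans for these 2 genes. The last 29 bases of the Chrnb1 run, its CAGGTG included, and the last 19 of the Chrne run lie inside the gene's span. Over all 32851 RefSeq promoter windows of 250 bases, 66.2% held a CANNTG, 13.0% held a CAGCTG (which is 1 form of CANNTG), 1.26% held at least 2 CAGCTG, and 17.2% held CAGGTG or its reverse complement CACCTG. Windows without a peak held the motif too. The Musk window held 3 E-boxes, a CAGCTG among them, with no peak over it, and the Dok7 and Agrn windows held at most 1, in each case without a CAGCTG. Of the 250 bases, 233 of the Musk window and 195 and 250 of the Dok7 windows lie inside the gene's RefSeq span. The Agrn window at chr4:156186260-156186509 also lies inside its gene's span. These windows are thus mostly not sequence upstream of the gene's 5' end. The core of the N-box, an element described in synaptic genes (CCGGAA, or TTCCGG on the other strand), was found at position -76 in the Chrne window and in no other window of these genes, and in 12.0% of all windows.

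All peaks listed for the junction genes came from ASC MyoD libraries, and scores were highest at the promoters of Rapsn and Chrna1. ASC MyoD libraries 1, 2 and 3 held 8, 5 and 3 peaks at the 10 genes (mean 5.33 ± 2.52, SD, n = 3). Every ASC MyoG, QSC MyoD and QSC MyoG library held 0. The groups therefore did not overlap, but the number of peaks in a whole list also differed between them, and its part in this difference was not tested. Per 1000 listed peaks, ASC MyoD libraries held 3.02, 2.21 and 1.31 junction gene peaks. The longest ASC MyoG, QSC MyoD and QSC MyoG lists held 916, 174 and 167 peaks. For lists as short as those of QSCs, list length and state cannot be told apart in these counts.

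**Figure D1:**
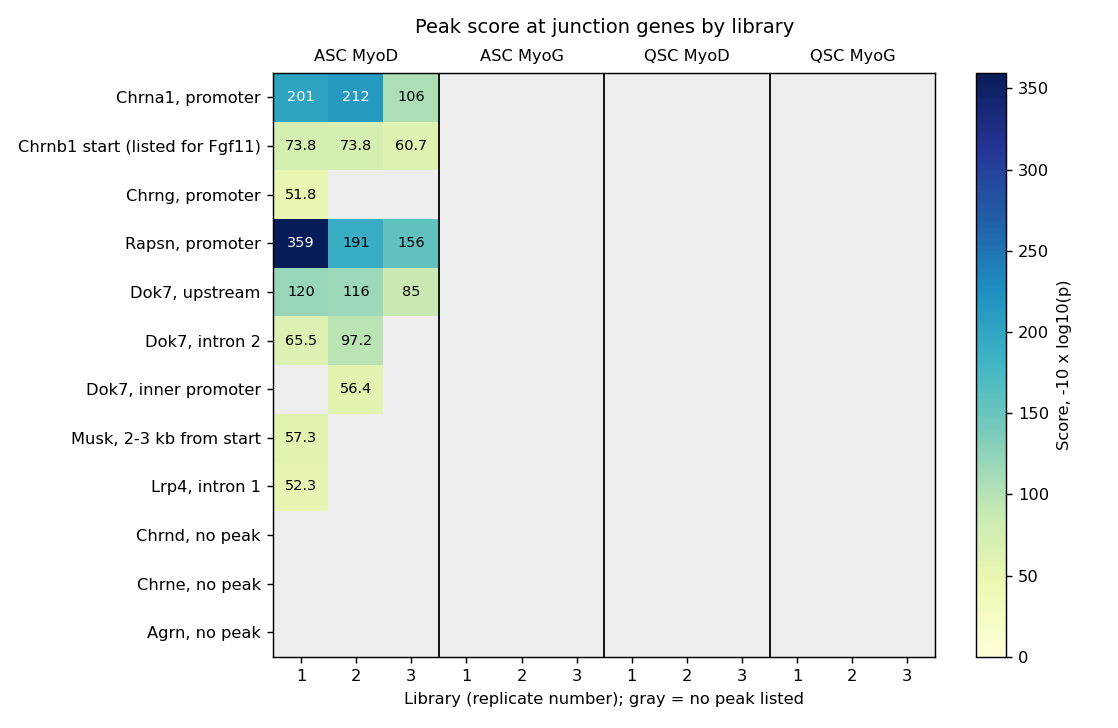
Score of the highest peak at each junction gene region (rows) in each of the 12 libraries (columns, grouped by state and antibody), with gray where no peak is listed. Every filled cell is in an ASC MyoD library, from 51.8 at Chrng to 359 at Rapsn.

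The alpha subunit gene Chrna1 (ENSMUSG00000027107) carries the acetylcholine binding site of the receptor. Its promoter region (mm10, chromosome 2, 73579269 to 73580942) had a peak in all 3 ASC MyoD libraries, with highest scores of 201, 212 and 106 (mean 173 ± 58.4, SD, n = 3). Library 1 also listed a separate peak inside the region, with a score of 101. Libraries 1 and 2 were high and library 3 was about as high as the weaker peak of library 1. The peaks with the highest scores covered the whole promoter run shown above and thus all 3 of its E-boxes in each library. The centers of the Chrna1 peaks lay from 65 bp upstream to 696 bp downstream of the gene's 5' end. Chrna1 had 2, 1 and 1 peaks in ASC MyoD libraries and 0 in each QSC MyoD library. The exact two-sided permutation p was 0.1, the smallest that 3 libraries against 3 allow (adjusted p = 0.424 over 4384 genes). Chrna1 is listed only through ASC MyoD peaks. Any such gene with a peak in all 3 ASC libraries gets this p, so it is no separate support.

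The beta subunit gene Chrnb1 had no peak under its own name, yet a MyoD region lay over its 5' end. The region (chromosome 11, 69795112 to 69796503) was annotated as a promoter of Fgf11 (ENSMUSG00000042826), a gene of the fibroblast growth factor family. Both genes lie on the minus strand, and the RefSeq span of Fgf11 (69796068 to 69802944) ends just upstream of the 5' end of Chrnb1 at 69795966. The region thus overlaps the 3' end of the Fgf11 span, whose 5' end is at 69802944. This region had a peak in all 3 ASC MyoD libraries, with scores of 73.8, 73.8 and 60.7 (mean 69.4 ± 7.57, SD, n = 3). In these lists 48.2%, 52.1% and 34.2% of the peaks scored no higher, so the region was near or below the middle of each. All 3 peaks covered the promoter run of Chrnb1 shown above, and no other group had a peak there. With genes assigned by position (a region within 3 kb of the RefSeq gene), 4 of 10 genes rather than 3 had an ASC-specific MyoD region, against 5.17% of protein-coding genes. This region was singled out after its values were seen and is not counted among the peaks of the 10 genes.

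The other receptor subunits had weak peaks or none. Chrng (ENSMUSG00000026253), the fetal subunit gene, had 1 promoter peak (chromosome 1, 87205161 to 87205986) in ASC MyoD library 1, with a score of 51.8, and 4.98% of the peaks in that list scored no higher. It covered the Chrng promoter run with both of its CAGCTG motifs, and libraries 2 and 3 listed no peak there. Chrnd, which encodes the delta subunit and precedes Chrng on chromosome 1 (87190597 to 87200070), had no peak, and the Chrng peak was the nearest at 5.09 kb. Chrne (chromosome 11, 70614883 to 70619213) had no peak, and the nearest ASC MyoD peak was 145 kb away. Chrng had 1, 0 and 0 peaks in ASC and 0 in each QSC MyoD library (exact permutation p = 1, where no gene could go below 0.1).

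**Figure D2:**
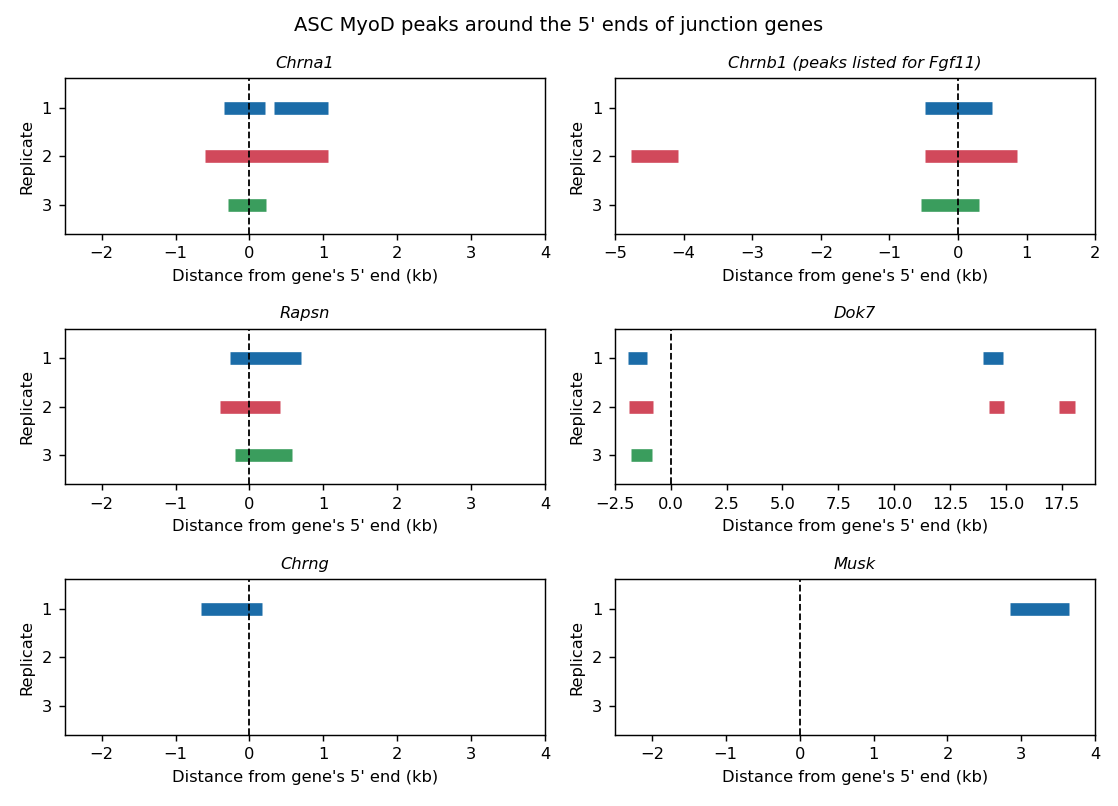
ASC MyoD peaks (bars, 1 color and row per replicate) by distance from the 5' end of the gene in kb, with positive values inside the gene and a dashed line at the 5' end (for Rapsn, the first base of its RefSeq span). Peaks of all 3 libraries lie over the 5' ends of Chrna1, Chrnb1 and Rapsn, while those of Dok7 lie upstream of it and deep inside the gene.

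Rapsn (ENSMUSG00000002104) had the highest mean score of the 10 genes, and the highest score in libraries 1 and 3. Its promoter region (chromosome 2, 91035080 to 91036175) had scores of 359, 191 and 156 in ASC MyoD libraries 1, 2 and 3 (mean 235 ± 109, SD, n = 3), and 98.8%, 94.5% and 91.3% of the peaks in their lists scored no higher. Library 1 was high and libraries 2 and 3 were close to each other. Of the 1976 ASC-specific MyoD regions, 96.2% had a lower mean score than the Rapsn promoter and 92.2% a lower one than the Chrna1 promoter. The centers of the Rapsn peaks lay 11 to 220 bp inside the gene, measured from the first base of its RefSeq span. Rapsn had 1 peak in each ASC MyoD library and 0 in each QSC MyoD library (exact permutation p = 0.1, adjusted p = 0.424). As for Chrna1, this p only restates the peak in all 3 ASC libraries.

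Dok7 (ENSMUSG00000044716) had 3 MyoD regions, the most of the 10 genes. A region upstream of the gene (chromosome 5, 35054664 to 35055786), which the authors annotated as a promoter at 1 to 2 kb and which spans positions -1907 to -785 bp from the RefSeq 5' end, had a peak in all 3 ASC MyoD libraries, with scores of 120, 116 and 85.0 (mean 107 ± 19.1, SD, n = 3). The peaks of this region ended before the first promoter window, so the single E-box there was not under them. A region in intron 2 (35070555 to 35071476) had scores of 65.5 and 97.2 in libraries 1 and 2 and no peak in library 3. The third region (35073967 to 35074646), annotated as a promoter although it lies over 17 kb inside the RefSeq gene, had a score of 56.4 in library 2 and no peak in libraries 1 and 3. Dok7 had 2, 3 and 1 peaks in ASC MyoD libraries and 0 in each QSC MyoD library (exact permutation p = 0.1, adjusted p = 0.424). Here too the p only restates a peak in all 3 ASC libraries. The upstream and the intron region were ASC-specific, and 17.2% of the 1615 genes with an ASC-specific MyoD region had at least 2.

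Within each library the order of the promoter scores was alike but not fixed. Rapsn exceeded Chrna1 in libraries 1 and 3 and Chrna1 exceeded Rapsn in library 2, so the difference between these genes was within their spread. The Dok7 upstream region was the lowest of the 3 in every library. Scores move with read depth, so this order is given within lists.

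**Figure D3:**
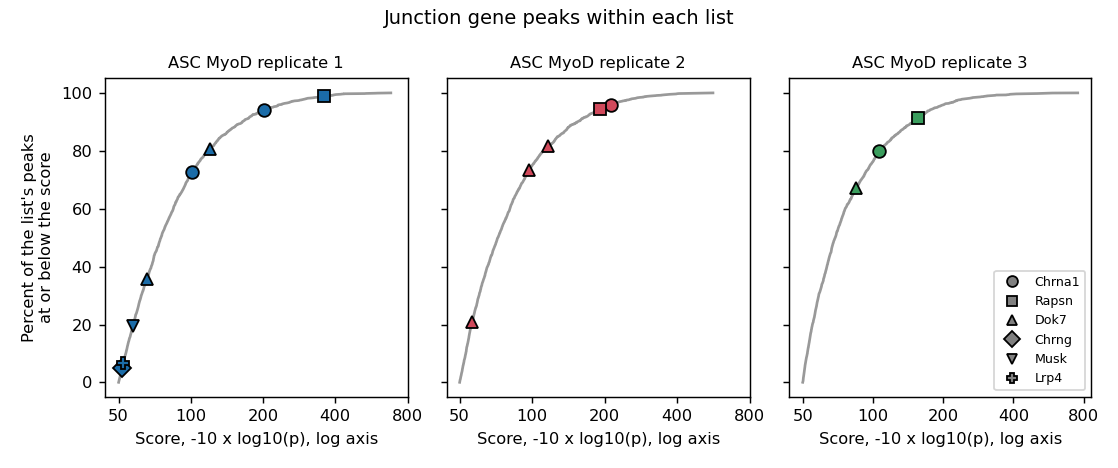
Percent of peaks at or below a given score (gray curve; score on a log axis) in each ASC MyoD list, with each junction gene peak marked by a symbol. The highest peaks of Rapsn and Chrna1 lie at 79.8% or above in every list, while Chrng, Musk and Lrp4 appear in list 1 alone, at 19.5% or below.

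The receptor kinase and the agrin axis upstream of it had few peaks. Musk (ENSMUSG00000057280) had 1 peak (chromosome 4, 58288581 to 58289371), with a score of 57.3 in ASC MyoD library 1. The authors annotated this peak as a promoter at 2 to 3 kb, and it was centered 3247 bp inside the gene. Lrp4 (ENSMUSG00000027253) had 1 peak in intron 1 (chromosome 2, 91461361 to 91462286) of a single transcript model, with a score of 52.3 in the same library. In that list 19.5% and 6.75% of peaks scored no higher than those of Musk and Lrp4. Agrn, the gene of the nerve signal itself, had no peak, and the nearest ASC MyoD peak was 331 kb away. Musk and Lrp4 each had 1, 0 and 0 peaks in ASC and 0 in each QSC MyoD library (exact permutation p = 1 for each). Of the 4 regions seen in a single library, 3 came from library 1, the list with the most peaks, and their scores ran from 51.8 to 57.3.

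In all, Chrna1, Rapsn and Dok7 (3 of 10 genes) had an ASC-specific MyoD region, 4 regions in total. Over 21900 RefSeq protein-coding genes the share was 5.92%, and over the 4384 genes of the lists it was 36.8%, which counts only genes with a peak somewhere. The same 3 genes, out of the 6 junction genes that are listed, had more peaks in every ASC than in every QSC MyoD library. So did 23.3% of the listed genes. This comparison is not like for like, since the 6 junction genes are listed only through ASC MyoD peaks. The listed genes also include some with only MyoG or QSC peaks. Of protein-coding genes, 2343 had a peak in at least 1 ASC MyoD library and 1296 an ASC-specific MyoD region. For the junction genes these numbers were 6 and 3, a similar proportion. With ASC-specific regions annotated as promoter only, 3 of 10 genes counted, against 1.66% of protein-coding genes. With a peak in at least 1 ASC MyoD library as the criterion, 6 of 10 genes counted, against 10.7% of protein-coding genes. The 10 genes were chosen with results of these data known, so no test of these shares was made. Of the 16 junction gene peaks, 13 (81.3%) were annotated as promoter peaks, against 22.5% of all ASC MyoD peaks. The 3 genes give most of them, so these peaks are not independent of each other. By region, 6 of 8 were annotated as promoter, and 4 of the 8 were seen in 1 library. The promoter peaks include that of Dok7 over 17 kb inside the gene and that of Musk centered 3247 bp inside.

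No gene of the 10 had a MyoG peak or a QSC peak. In ASCs, 3.36% of protein-coding genes had a MyoG peak in at least 1 library, 0.187% had an ASC-specific MyoG region and 0.0639% had a promoter region of that kind. Among the listed genes, 2.08% had an ASC-specific MyoG region and 1.67% had more MyoG peaks in every ASC than in every QSC library. In QSCs the shares with a peak in at least 1 library were 1.02% for MyoD and 1.27% for MyoG. With shares this low, 10 genes are too few for their lack of peaks to stand apart from all genes. The nearest ASC MyoG peak lay 44.4 kb from Dok7, and for the other genes 132 kb (Agrn) to 3157 kb (Chrnb1) away. The nearest QSC MyoD peak of any of the 10 genes was 245 kb from Musk.

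Other genes of the junction also had ASC-specific MyoD regions. Of 46 such genes, 12 (26.1%) had at least 1, and 15 regions in all, against the 5.92% of protein-coding genes given above. The 46 genes were also chosen with earlier results of these data known, and this share was not tested. Of 11 neuronal receptor subunit genes (Chrna2 to Chrna7, Chrna9, Chrna10 and Chrnb2 to Chrnb4), 0 had a peak in any library. With 10.7% of protein-coding genes having any ASC MyoD peak, 11 genes are too few for this 0 to stand apart from all genes. The 46 genes of the wider list are long, with a median span of 55.2 kb (144 kb for the 12). The median was 17.1 kb for all protein-coding genes, 61.8 kb for those with an ASC-specific MyoD region and 14.5 kb for the 10 genes. The part of length in these counts was not tested.

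**Figure D4:**
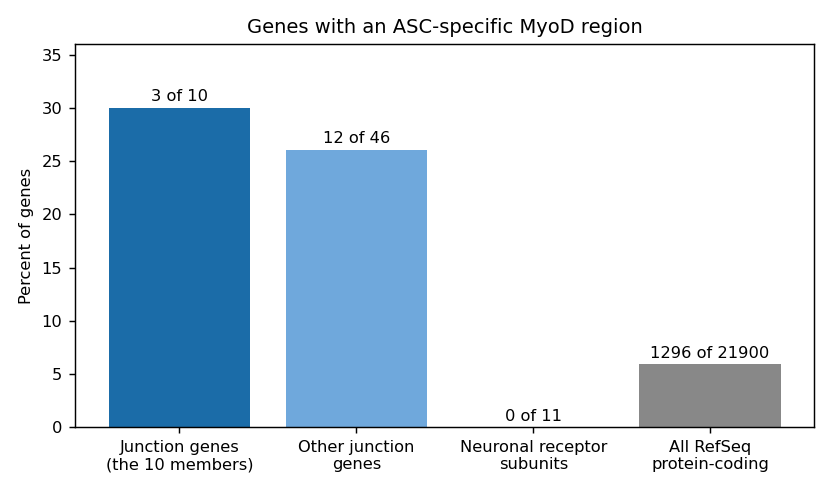
Percent of genes with at least 1 ASC-specific MyoD region (bars, from 0), with the number of genes above each bar. The 10 junction genes and the 46 other junction genes stand at 30.0% and 26.1%, the neuronal subunits at 0 and all protein-coding genes at 5.92%. The junction and neuronal lists were chosen with earlier results of these data known.

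The highest mean scores among them were those of Plec and Utrn. Plec, which encodes the cytoskeletal linker plectin, had a promoter region with scores from 257 to 301 (mean 281 ± 22.4, SD, n = 3). Utrn, which encodes utrophin, the dystrophin relative enriched at the junction, had an intron 1 region with scores from 123 to 315 (mean 224 ± 96.2). Dag1, the dystroglycan gene, had a pair of distal regions with means of 88.6 ± 52.5 and 143 ± 17.8, and Macf1, a linker of microtubules and actin, an intron 1 region with 136 ± 43.6. At least 97.8% of the peaks in each list scored no higher than that of Plec, and at least 85.1% no higher than that of Utrn. Dtna, which encodes dystrobrevin, had a promoter region in 2 of 3 libraries, with scores of 104 and 127.

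The remaining named genes belong to matrix, signaling and other roles. Lama5, a laminin chain of the synaptic matrix, had a promoter region with a mean score of 180 ± 36.8 (SD, n = 3) and an exon 3 region in 2 libraries. Pdzrn3, a ubiquitin ligase that acts on MuSK, had a distal region with 145 ± 57.9. Hdac4, a deacetylase of the denervation response, had an intron 1 region with 142 ± 35.6, Prkar1a, a regulatory subunit of protein kinase A, a promoter region with 136 ± 14.1, and Gfpt1, a sugar metabolism enzyme mutated in congenital myasthenia, a promoter region with 88.2 ± 21.8. The last 2 of the 12, Sntb1 (syntrophin) and Colq (the collagen tail that anchors acetylcholinesterase), had lower scores, with means of at most 73.3. None of the 12 had a QSC peak or a MyoG peak in any library. Among the rest of the list, Alg14, an enzyme of protein glycosylation, had the only QSC MyoD peak, in library 2, beside ASC MyoD peaks in libraries 1 and 2. Single MyoG peaks were listed in ASC libraries at Dach2, Ncam1 and Syne1, which had no ASC-specific region with either antibody.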

How the data were processed

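Peak lists of 12 ChIP-seq libraries were analysed. The deposited lists hold 1 library each, and the score of each peak is minus 10 times the log10 of its MACS p-value, as the authors wrote it, and it is not scaled between libraries. Deposited positions are in bp. The submitters' processing notes name BWA 0.7.5, MACS, deepTools 3.5.0 and mm10. The MACS version, the use of inputs, filters and the annotation tool are not given in the sources used here. Peak numbers run on past the number of peaks listed, so some numbered peaks were not analysed here. Promoter means within 3 kb of a transcription start as the authors annotated it.

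Peaks were merged into regions at an overlap of at least 1 bp. Peak numbers per gene were compared over libraries by exact two-sided permutation tests with Benjamini-Hochberg adjustment over all 4384 listed genes, and the smallest possible p is 0.1. The labels number the replicates, which the study calls biological, and do not say which animals each came from, so p-values measure the spread between these libraries. Of the listed genes, 4099 matched a RefSeq symbol, and 4 peaks without a gene symbol were left out of gene counts. Distances were measured from RefSeq gene spans, and motifs were searched on both strands in the 250 bases before each RefSeq start. Region calling was tested on simulated lists. The 10 genes, the 46 other junction genes and the 11 neuronal subunits were chosen with earlier results of these data known. All 10 genes were named, and of the other lists the 10 genes with the highest mean score among those with a region in at least 2 libraries. Sntb1, Colq, Alg14, Dach2, Ncam1, Syne1 and Fgf11 were named after their values were seen. Python 3.11.15, pandas 2.3.3 and matplotlib 3.10.9 were used.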

Additional observations from a re-analysis of the deposited data

Results flagged for a closer look

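Within 5 kb of Chrnb1, 4 ASC MyoD peaks were listed under another gene, Fgf11, and the other 3 groups had 0. They were singled out because a count by gene symbol leaves them out. Of these, 3 form the region described above, over the 5' end of Chrnb1 and the 3' end of the Fgf11 span. The other lay at 69800042 to 69800733 on chromosome 11, in ASC MyoD library 2 alone, with a score of 72.8. Which of the 2 genes a peak at this shared border belongs to was not tested.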

How the results depend on the processing

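With a peak in at least 1 library as the criterion, the number of junction genes with an ASC-specific MyoD region was 6 in place of 3 and the number of regions was 8 in place of 4. Of the 54 comparisons with an alternative, the other 52 stayed within 1.5 times the reported count or within 1 SD of the reported mean. Many of these could not change, since no junction gene had a MyoG, QSC or distal intergenic peak. Settings that drop such peaks or libraries are thus no evidence of stability. With only scores of at least 80 kept (p of 1e-08 or lower), the counts were 3 genes and 3 regions, since the Dok7 intron region was lost, and the mean number of peaks per ASC MyoD library was 3.67. Without each library in turn, the number of genes stayed at 3, the number of regions was 3 or 4 and the mean ASC minus QSC difference ran from 4 to 6.5 peaks. With genes assigned by position (a region within 3 kb of the RefSeq gene), an alternative chosen after seeing the data, 4 of 10 genes counted, Chrnb1 being added, against 5.17% of protein-coding genes. With differences formed within replicate numbers (a replicate block), the mean difference was 5.33 by arithmetic, from pairs of 8, 5 and 3, the same number of genes (3) was higher in ASCs in every pair, and the smallest sign-flip p is 0.25. The numbers are not known to pair the samples: deviations of log2 peak number in same-numbered libraries had correlations from -0.986 to 0.999. Read depth is unknown, so a gene without a peak may have had too few reads.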
